A study of Homo sapiens with 10 samples.

Results

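Adenylate kinases move phosphate between ATP and AMP and so set the balance of the adenine nucleotides. Of the 8 members considered (AK1, AK3, AK4, AK5, AK6, AK7, AK8 and AK9), 5 had a probe set among the 17687 genes measured: AK1, AK3, AK4, AK5 and AK9. The family was chosen by a measured value, the lower AK5 signal of starved cells in both cell lines, so all AK5 values below are a description and carry no test. AK6, AK7 and AK8 had no probe set by symbol, Entrez ID or accession in the annotation used here and were not analysed here.

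Affymetrix Clariom S human arrays, 10 in all, measured the RNA of CWR22Rv1 and PC3 cells, both established prostate cancer cell lines. Control medium was arginine-free RPMI with dialyzed serum, to which arginine was added back at 200 mg/L, and starved cells (-R) received the same medium without it. A CWR22Rv1 time course held 1 array each at 0 h, 24 h and 48 h of starvation, where the array named 0 h is labelled as 24 h in control medium. Its 48 h array therefore had no control of the same time in medium. Starvation and longer time in medium cannot be told apart in its 48 h differences. A CWR22Rv1 experiment held 1 array each, at 48 h, of starved cells given dimethyl α-ketoglutarate (DMKG), starved cells and control cells, and PC3 had 2 starved and 2 control arrays at 48 h. DMKG is a form of the TCA cycle intermediate α-ketoglutarate that crosses membranes. Its dose is 5 mM in the labels, whereas the methods give the number in µM. Nothing in the labels says that replicates came from separate cultures, so the spread between arrays may be technical.

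All values are on a log2 scale, so a difference of 1 is a doubling. Array medians over genes lay between 6.11 and 6.87. The 612 negative control probe sets had medians of 3.30 to 4.04 and 95th percentiles of 6.78 to 8.75 per array. A value below the 95th percentile is not told apart from background, and a value near the median cannot show a further decrease. In the DMKG experiment, 21.6% to 26.3% of genes had exactly the same value on a pair of arrays, against at most 0.124% elsewhere, and the cause was not tested. All 4 epithelial markers lay above the 95th percentile in CWR22Rv1 cells and 3 of 4 in PC3, where CDH1 read 2.904 to 3.464. CTNNA1, a catenin that PC3 cells lack, read 3.17 to 3.85 in PC3 and 13.37 to 13.96 in CWR22Rv1. Of the leukocyte and endothelial markers 0 were above that percentile on any array, and of the 5 fibroblast markers at most 1 an array. The log2 of the summed linear level of the 5 luminal prostate markers found of 8 was 10.51 to 10.67 in starved and 12.08 to 12.25 in control PC3 cells, 13.2 at 48 h and 13.95 at 0 h of the time course, and 14.4 with DMKG, 14.5 in starved and 15.4 in control cells of the DMKG experiment. These sums were lower in starved cells, as AK5 was. In CWR22Rv1 all 5 markers were lower at 48 h in both experiments, but KLK3 in the time course differed by only -0.01. KLK2, KLK3 and TMPRSS2 were below the 95th percentile on every time course array, so their differences there are not told apart from background. In the DMKG experiment 2 of the 5 were above it in starved cells and 5 in control cells. In PC3 HOXB13 differed by -2.85, but STEAP2 by 0.73, TMPRSS2 by 0.26, KLK3 by 0.12 and KLK2 by -0.06. On each PC3 array 2 of the 5 were above the 95th percentile, so the PC3 sums do not show a fall of these markers as a group. The part of the markers in the results was not tested.

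The members differ in where they work. AK1 is the main cytosolic enzyme, abundant in muscle. AK5 is also cytosolic, is expressed mainly in brain and carries a pair of kinase domains in one chain. AK3 and AK4 lie in the mitochondrial matrix, where AK3 uses GTP to phosphorylate AMP and AK4 is induced by hypoxia. AK9 is found in nucleus and cytosol, AK6 is a nuclear enzyme encoded at the TAF9 locus, and AK7 and AK8 belong to motile cilia.

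The start of the AK5 gene is shown because AK5 is the member whose RNA differed most between starved and control cells. RefSeq (GRCh38.p14) places its outermost start window, of 250 bases before to 50 bases after the start, at chr1:77281769-77282068 on the plus strand. Each CpG is in capitals, and the window is printed 5′ to 3′.
AK5 first window: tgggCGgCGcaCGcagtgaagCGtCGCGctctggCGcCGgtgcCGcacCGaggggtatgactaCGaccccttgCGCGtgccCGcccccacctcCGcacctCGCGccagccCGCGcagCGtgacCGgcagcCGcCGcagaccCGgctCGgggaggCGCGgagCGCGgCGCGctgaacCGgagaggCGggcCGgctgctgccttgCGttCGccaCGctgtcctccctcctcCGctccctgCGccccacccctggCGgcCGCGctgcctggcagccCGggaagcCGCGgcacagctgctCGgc
This window held 46 CpG and 78.0% G+C, more CpG than 97.1% of the 35116 windows of this length, whose median was 14. A second AK5 start window, at chr1:77282837-77283136, held 15 CpG and 60.7% G+C, more CpG than 51.1% of windows. No methylation or binding was measured on these arrays, and which start the cells use was not tested.

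Short sequence motifs, 3 in all, were looked up on both strands of the 11 windows of the 5 measured members. TGATGNAA, the core of the composite site of the amino acid response factor ATF4, was in 0 of 11 windows and in 3.62% of all windows. The E-box CACGTG was in 2 of 11 windows, both of AK4, and in 7.26% of all. The hypoxia response core ACGTG, which every CACGTG contains, was in 4 of 11 windows, 2 of AK4, the second of AK5 and that of AK9, and in 21.41% of all. A match to these letters is not a binding site, and a missing match says nothing about the factor.

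AK5 was lower in starved cells of both lines, at very different levels. In PC3 it read 8.32 and 8.30 in the starved arrays, against 11.53 and 11.38 in the control arrays. The starved PC3 arrays lay close together, and both were far below either control array. Starved PC3 averaged 8.31 ± 0.014 and control PC3 11.46 ± 0.11 (SD, n = 2 each), a difference of measured values of -3.14. AK5 was above the 95th percentile of the negative controls on both control arrays and on 1 of 2 starved arrays (8.32 against 7.94, and 8.30 against 8.75), so no fold is given.

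In the CWR22Rv1 time course, AK5 read 5.73 at 0 h, 3.96 at 24 h and 3.52 at 48 h of starvation. The 24 h difference of -1.77 was 80.1% of the 48 h difference of -2.21 on the log2 scale. At 24 h AK5 already exceeded only 62% of the negative controls, so background bounds this share and it does not show the timing. In the DMKG experiment it read 3.51 in starved cells given DMKG, 3.32 in starved cells and 5.65 in control cells. Both experiments thus had a high control array and low starved arrays, with 48 h differences of -2.21 and -2.33. The fitted difference of these measured values, all of them inside the range of the negative controls, was -2.27 (SE 0.17). The array with DMKG differed from the starved array by 0.19, which is 8.14% of the gap to control, and from the control array by -2.14.

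These CWR22Rv1 values sit within the negative controls, which limits what they show. The control arrays exceeded 90.7% of the negative controls in the time course and 88.1% in the DMKG experiment, short of the 95th percentile in both. At 48 h of starvation AK5 exceeded 47.5% and 47.7% of them, and with DMKG 55.9%. AK5 in starved CWR22Rv1 cells was therefore at the level of the negative controls, and no fold change is given for this line. The difference between the 48 h and 24 h arrays of the time course, -0.44, and the 0.19 with DMKG both fall inside that range.

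**Figure D1:**
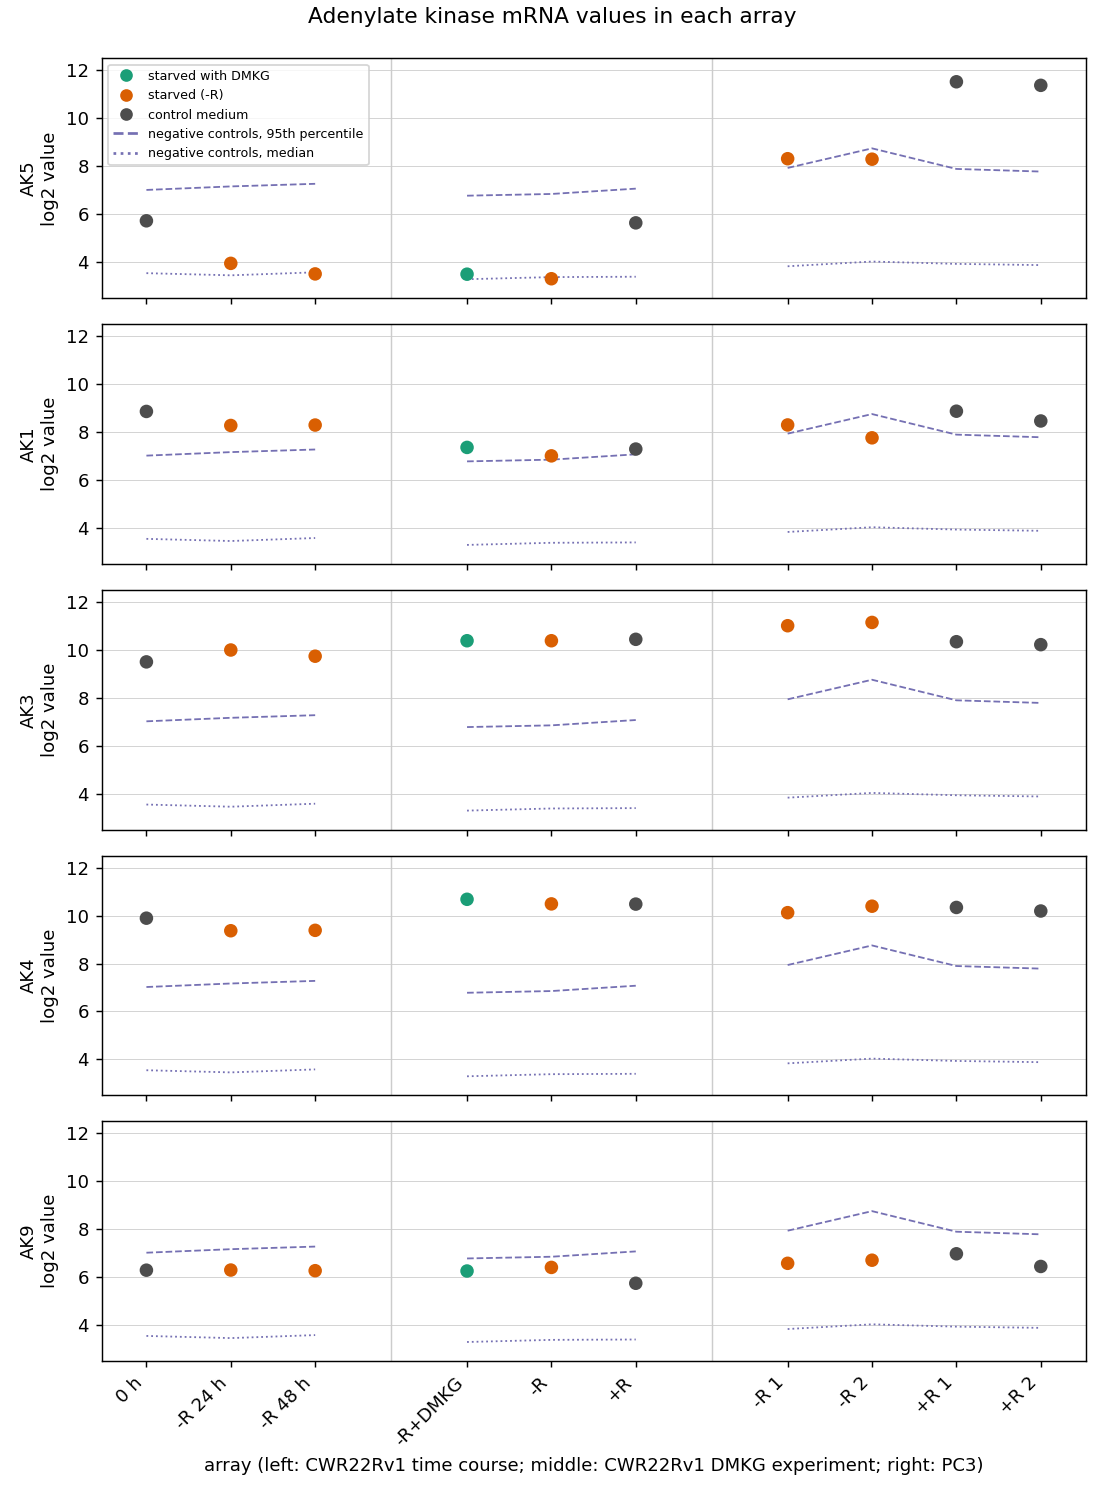
Log2 value (y axis) of each measured adenylate kinase on each of the 10 arrays (x axis, in 3 sets), with starved arrays with DMKG in green, starved arrays in orange and control arrays in grey. The dashed and dotted lines join the 95th percentile and the median of the 612 negative controls of each array. AK5 is at the dotted line in CWR22Rv1 cells after 48 h of starvation, at 3.32 and 3.52, and AK9 is below the dashed line on all 10 arrays.

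The order of AK5 levels was PC3 control, PC3 starved, CWR22Rv1 control and CWR22Rv1 starved. After quantile normalization over all arrays, PC3 controls read 10.91 and 11.05, whereas CWR22Rv1 controls read 5.88 and 5.96. The measured gap was 5.06, with the CWR22Rv1 controls not above the 95th percentile of the negative controls, and starved PC3 cells, at 7.87 and 7.88, stayed above the CWR22Rv1 controls. At the low end, the arrays at 48 h without arginine read 3.39 and 3.60 and the array with DMKG 3.58, which cannot be ordered this close to background. For the other members the control gap (PC3 minus CWR22Rv1) was -0.73 for AK4, -0.49 for AK3, -0.23 for AK1 and 0.07 for AK9. For AK1 and AK3 it was smaller than the gap between the control arrays of the CWR22Rv1 experiments, which was -1.41 and 1.05 (DMKG experiment minus time course). Cell line and array set cannot be told apart in these gaps, and none was tested.

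The other 4 members had no common response. At 48 h in CWR22Rv1 cells, 0 of the 4 passed an adjusted p of 0.05 in limma in either direction, and 0 had an unadjusted p under 0.05, where 6.94% of all genes were called, 3.2% higher and 3.74% lower. In PC3 cells 1 of 4 rose and 0 fell, where 19.6% of all genes were called, 9.59% higher and 10% lower. The median difference of the 4 was -0.08 in CWR22Rv1 and -0.04 in PC3, against 0.02 over all genes in both lines. AK1 was the single member of the 4 that was lower in both CWR22Rv1 experiments and in both starved PC3 arrays, a pattern that 12% of all genes had. None of the 4 was higher in all of them, as 13% of genes were.

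AK3, the mitochondrial GTP-dependent enzyme, rose in PC3 cells. It read 11.01 and 11.14 in starved arrays and 10.34 and 10.22 in control arrays. Both starved PC3 values were above both controls, a separation that 31.3% of all genes had in this direction. The means were 11.07 ± 0.097 in starved and 10.28 ± 0.087 in control PC3 cells (SD, n = 2 each), a rise of 0.80 (SE 0.18, 1.74-fold, limma adjusted p = 0.0179, 95% interval 0.38 to 1.21). The call rested on every PC3 array, since leaving out any 1 of the 4 gave 0.73 to 0.86 with an adjusted p of 0.0609 to 0.107.

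In the time course AK3 read 9.50 at 0 h, 9.99 at 24 h and 9.74 at 48 h. In the DMKG experiment it read 10.38 with DMKG, 10.38 in starved cells and 10.44 in control cells, and the identical values are among the repeats described above. The 48 h differences in CWR22Rv1, 0.24 and -0.06, ran in opposite directions, and the fitted 0.09 (SE 0.18) had a limma adjusted p of 0.862. The response in PC3 minus that in CWR22Rv1 was 0.71 (SE 0.25, 95% interval 0.12 to 1.29, unadjusted p = 0.0237, limma adjusted p = 0.170). A difference between the lines in the AK3 response was therefore not shown after adjustment. Across all genes, 4.4% were called in that comparison, 1.97% higher and 2.43% lower in PC3, and 0 of the 4 members were.

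AK4, the other matrix enzyme, did not share the rise. It read 10.12 and 10.39 in starved PC3 arrays and 10.34 and 10.19 in control PC3 arrays, so the groups overlapped. The PC3 difference was -0.01 with a 95% interval of -0.48 to 0.46. In the time course it read 9.89 at 0 h, 9.37 at 24 h and 9.38 at 48 h, and in the DMKG experiment 10.68 with DMKG, 10.49 in starved cells and 10.48 in control cells. The 48 h difference was thus -0.51 in the time course and 0.01 in the DMKG experiment, and the fitted -0.25 (SE 0.20) had a limma adjusted p of 0.586. AK4 has processed pseudogene copies in the human genome, and nothing read here says whether its probes tell them apart.

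AK1, the cytosolic enzyme, was lower in each starved set, with differences that did not pass. In PC3 it read 8.30 and 7.76 in starved arrays and 8.87 and 8.47 in control arrays. Both starved values lay below both controls, as for 28.6% of all genes, with means of 8.03 ± 0.38 in starved and 8.67 ± 0.29 in control cells (SD, n = 2 each). The difference of -0.64 (SE 0.24, 95% interval -1.19 to -0.08) had an unadjusted p of 0.0292 and a limma adjusted p of 0.106. In the time course AK1 read 8.86 at 0 h, 8.28 at 24 h and 8.30 at 48 h, and in the DMKG experiment 7.36 with DMKG, 7.01 in starved cells and 7.29 in control cells. The 48 h differences were -0.57 and -0.28, with a fitted -0.43 (SE 0.24, limma adjusted p = 0.397). AK1 exceeded the 95th percentile of the negative controls on 9 of 10 arrays, all but the second starved PC3 array.

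AK9 was below that percentile on 10 of 10 arrays, and its values are close to background throughout. It read 6.58 and 6.71 in starved PC3 cells and 6.98 and 6.45 in control PC3 cells, which overlapped. Its time course read 6.29 at 0 h, 6.30 at 24 h and 6.27 at 48 h, whereas the DMKG experiment gave 6.26 with DMKG, 6.41 in starved cells and 5.75 in control cells. The fitted 48 h difference was 0.32 (SE 0.25, limma adjusted p = 0.555) in CWR22Rv1 and -0.07 (SE 0.25, limma adjusted p = 0.888) in PC3.

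**Figure D2:**
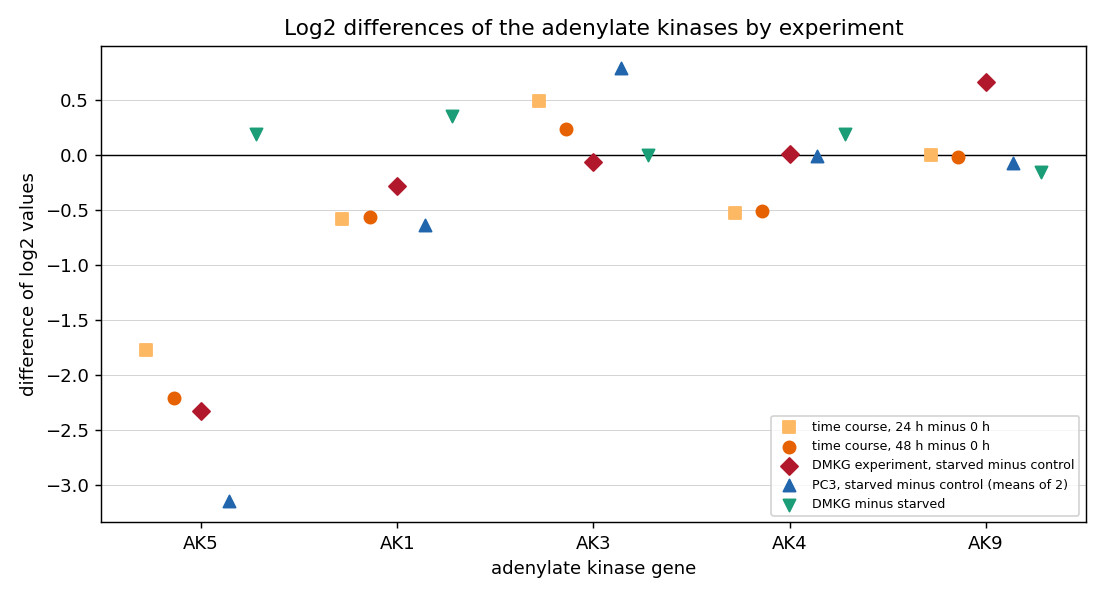
Difference of log2 values (y axis) of each measured adenylate kinase (x axis) in 5 comparisons: 24 h and 48 h minus 0 h in the time course, starved minus control in the DMKG experiment and in PC3 (means of 2 arrays), and DMKG minus starved. Each point is 1 difference and no error is drawn. AK5 lies between -3.14 and -1.77 in all 4 starvation comparisons, while the other members lie between -0.64 and 0.80.

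At 24 h of starvation and with DMKG, 0 of the 4 members other than AK5 were called, and 0% of all genes were (0 of 17687 by limma in both comparisons, with 2169 genes at 24 h and 360 genes with DMKG at an unadjusted p under 0.05). Of the 4, 0 had an unadjusted p under 0.05 in either comparison. The fitted 24 h differences were 0.42 for AK3, 0.18 for AK9, -0.39 for AK4 and -0.51 for AK1, with limma adjusted p between 0.539 and 0.897. With DMKG they ran between -0.07 for AK3 and 0.42 for AK1, with an adjusted p of 1 for all 4. Each of these effects rests on 1 array, so the comparison cannot show small effects.

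The genes whose pattern was nearest to AK5 were found by the root mean square difference over all 10 arrays, after taking the mean control of the same set from each array. Each CWR22Rv1 set had 1 control array, which is thus 0 for every gene and adds nothing to the distance. Background also bounds the AK5 differences in starved CWR22Rv1 cells, so nearness there may reflect it. The nearest 5 were PLA2G7, a secreted phospholipase that degrades platelet-activating factor (0.36), ANXA6, a calcium-dependent membrane-binding annexin (0.37), DSCC1, a subunit of the alternative clamp loader of sister chromatid cohesion (0.38), ACAT2, a cytosolic thiolase that makes acetoacetyl-CoA (0.40), and SNRPA1, a spliceosomal U2 protein (0.47). In starved PC3 cells their differences were -3.29 for PLA2G7, -2.95 for ACAT2, -2.83 for DSCC1, -2.62 for ANXA6 and -2.13 for SNRPA1, beside -3.14 for AK5. At 48 h of the time course they lay between -1.87 and -1.33, all smaller in size than the -2.21 of AK5. With DMKG, PLA2G7 and ACAT2 differed from control by -2.72 and -2.79, AK5 by -2.14, and ANXA6, DSCC1 and SNRPA1 by -1.95 to -1.61. The other adenylate kinases were farther from AK5, at 1.61 for AK1, 1.87 for AK4, 2.07 for AK9 and 2.27 for AK3.

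**Figure D3:**
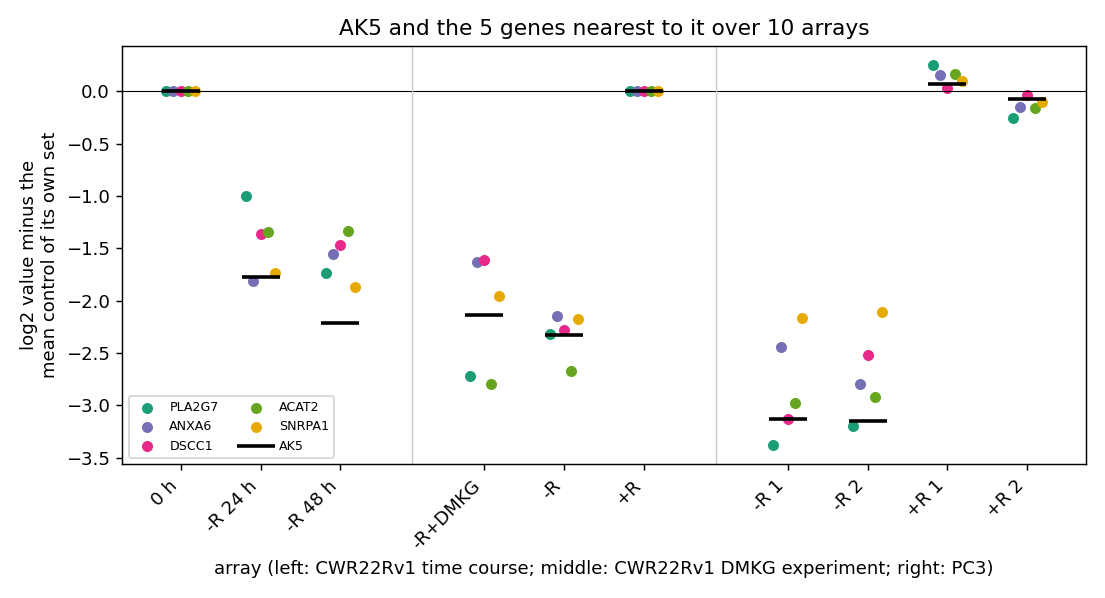
Log2 value minus the mean control of the same set (y axis) on each of the 10 arrays (x axis) for AK5 (black bars) and its 5 nearest genes (coloured points). All 6 genes are below -1.3 on the 48 h starved arrays and are farthest below control in PC3, except SNRPA1, which reads -2.17 and -2.11 in PC3 and -2.18 in the DMKG experiment.

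Genes that share substrates or sites with the adenylate kinases were described from lists, with limma adjusted p-values in parentheses where a bare value follows a difference. Over all lists together, 12 of 73 genes (16.4%) were called in CWR22Rv1, against 6.94% of all genes. A model of the CWR22Rv1 arrays without those of PC3 called 0 of 17687 genes at 48 h. All 12 of these CWR22Rv1 calls, including those named below, therefore needed the PC3 arrays in the model. In PC3 22 of 73 (30.1%) were called, against 19.6%. The lists were written with earlier results of these data known, so the higher shares are not independent evidence. CKMT1A and CKMT1B, which may read the same RNA, count separately. Several genes called in PC3, named below, were under the 95th percentile of the negative controls on every PC3 array. Of 4 other nucleoside monophosphate kinases measured, 3 fell in PC3, where 10% of all genes fell, and 0 passed the test in CWR22Rv1. The 3 that fell were DTYMK, the thymidylate kinase, at -1.55 (limma adjusted p = 0.00751), CMPK2, a mitochondrial UMP-CMP kinase, at -1.29 (0.0123), and GUK1, the guanylate kinase, at -0.61 (0.0442). DTYMK was above the 95th percentile of the negative controls on 2 of 10 arrays and CMPK2 on none. Without the second PC3 control array 0 of these 3 were called, without the second starved array 1, and without either first PC3 array 2.

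The creatine phosphate system, which buffers ATP as adenylate kinases do, had all 8 genes measured and a median of -1.03 in CWR22Rv1 cells and -0.48 in PC3. In CWR22Rv1, 4 of 8 fell and 0 rose, where 3.74% of all genes fell and 3.2% rose. CKB, the cytosolic brain-type creatine kinase, read 11.91 at 48 h and 13.28 at 0 h, and 11.17 in starved and 12.53 in control cells of the DMKG experiment, a fall of 1.36 (limma adjusted p = 0.00614). The mitochondrial creatine kinase CKMT1A fell by 1.10 in CWR22Rv1 (adjusted p = 0.0145), as did its near-identical copy CKMT1B, whose probes may read the same RNA, and the creatine transporter SLC6A8 fell by 1.06 in CWR22Rv1 (adjusted p = 0.0148). In PC3 3 of 8 were called lower and 1 higher, where 10% and 9.59% of all genes were. The 3 called lower were CKMT1A, CKMT1B and GAMT. GAMT, at -1.60 in PC3 (limma adjusted p = 0.0116), read 7.11 and 8.01 in starved and 9.04 and 9.27 in control PC3 cells. Neither starved GAMT value was above the 95th percentile of the negative controls in PC3. CKMT1A was called lower there (adjusted p = 0.00226), at 7.31 and 7.38 in starved and 8.79 and 8.52 in control cells, with both starved values not above the 95th percentile of the negative controls. CKMT1B in PC3 was below that percentile on all 4 arrays, and the gene called higher, GATM, which makes the creatine precursor from arginine, was below it on all 10 arrays, at 4.62 and 4.58 in starved and 3.88 and 3.95 in control PC3 cells. Without either 48 h array or either control array of CWR22Rv1, 1 (time course) or 0 (DMKG experiment) of the 4 CWR22Rv1 calls were made. In PC3 1 of the 3 was made without the second control array, 2 without the first starved array, and 0 rises without any 1 of the PC3 arrays.

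Among 16 of 18 enzymes of AMP and adenosine, 1 rose and 3 fell in CWR22Rv1, where 3.2% of all genes rose and 3.74% fell. In PC3 2 rose and 1 fell, which is near the share of all genes called in PC3, 19.6%. The fall in PC3 was that of ADA, at -0.94 (limma adjusted p = 0.0248), which was below the 95th percentile of the negative controls on all 10 arrays. NT5E, the ecto-nucleotidase that makes adenosine, rose by 1.504 in PC3 (limma adjusted p = 0.00118), while in CWR22Rv1 the nucleotidase NT5C2 rose by 1.28 (0.0170) and ADSS1, which feeds AMP synthesis, fell by 1.57 (0.0155). Of 12 genes of the AMP sensor AMPK and its upstream kinases, 1 rose and 1 fell in CWR22Rv1, and 2 rose and 4 fell in PC3, where 9.59% and 10% of all genes did and 6.94% were called in CWR22Rv1. The β subunit PRKAB1 rose by 1.21 in CWR22Rv1 (0.0133) and 1.01 in PC3 (0.00885), the γ subunit PRKAG2 fell by 0.85 (0.0287) and 0.87 (0.0108), and STRADB, a partner of the upstream kinase LKB1, fell by 0.93 in PC3 (0.00725). With either 48 h starved or control array of the DMKG experiment left out, 0 of these CWR22Rv1 calls were made. In PC3, 1 AMPK fall of 4 was left without any 1 of the 4 arrays and 0 rises without the first control or second starved array, and the fall in the adenosine list was lost without either control or the first starved array.

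Among 6 of 9 nucleoside diphosphate kinases, NME3 fell in CWR22Rv1 by 1.08 (limma adjusted p = 0.0204), and NME4 by 1.08 (0.00458) and NME5 by 0.90 (0.00923) in PC3. Of 8 of 9 mitochondrial adenine nucleotide carriers, the ATP-Mg/phosphate carrier SLC25A23 fell in both lines, by 1.32 (0.00726) and 1.02 (0.00554), and in PC3 SLC25A25 rose by 1.39 (0.00330) and the ADP/ATP carrier SLC25A5 fell by 0.92 (0.0141). SLC25A25 was below the 95th percentile of the negative controls on all 10 arrays and NME5 on all 4 PC3 arrays, and of the 48 h starved and control arrays of CWR22Rv1 NME3 was above it on the time course control alone. Of 18 motile cilium genes, where AK7 and AK8 act, 0 were called by limma in CWR22Rv1 or PC3, against 6.94% and 19.6% of all genes. Their medians were 0.06 and 0.12. All 18 were below the 95th percentile of the negative controls on all 10 arrays, so the lack of calls says little about them. TAF9, which shares its locus with AK6, had no probe set here, and its paralog TAF9B fell by 0.84 in PC3 (0.0126). No gene of any of these lists was called at 24 h or with DMKG. The calls of NME3 and of SLC25A23 in CWR22Rv1 were lost when either of these DMKG experiment arrays was left out, and that of SLC25A5 in PC3 without any 1 PC3 array. NME5 was lost without the first control or first starved PC3 array, and TAF9B without any 1 PC3 array but the second control.

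**Figure D4:**
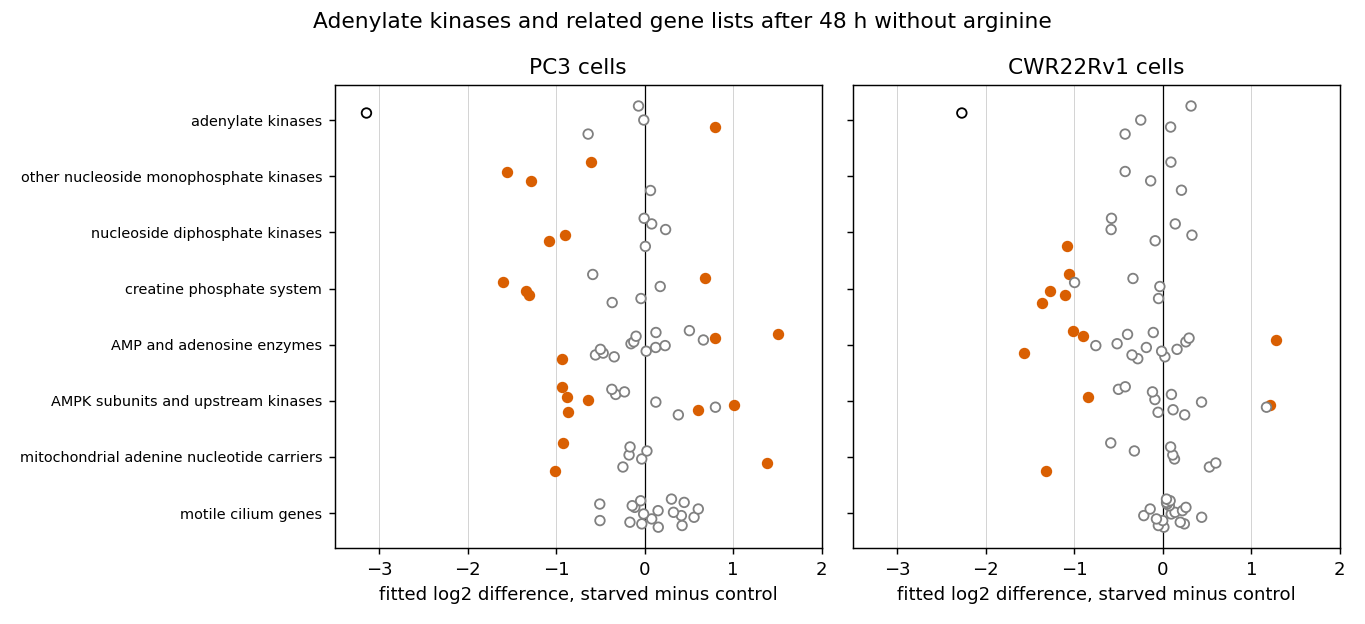
Fitted log2 difference of starved minus control cells at 48 h (x axis) in PC3 and CWR22Rv1 for the measured adenylate kinases and 7 lists of related genes (rows). Filled points passed a limma adjusted p of 0.05, grey open points did not, and the black open circle is AK5, which carries no test here. AK5 is the lowest point in both panels, at -3.14 and -2.27.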

How the data were processed

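RNA was measured on 10 Clariom S arrays. The deposited values are on a log2 scale, as the authors obtained them from the Transcriptome Analysis Console. For its version, background correction, normalization and genome build nothing was given in the sources used here, and normalization can move differences between arrays by small amounts. Of 24351 probe sets, 17709 carried a single gene symbol, and the brightest stood for each of the 20 genes with several, which left 17687 genes. The other 6642 probe sets, controls or without a symbol here, were left out of the tests.

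Array values were near-identical in distribution within each set of arrays, that is PC3, the DMKG experiment and the time course (mean gap of sorted values 0.0109 to 0.059) and less so between them (0.0684 to 0.554). One limma 3.58.1 model (R 4.3.3) over all 10 arrays therefore gave each set an intercept, with effects for 24 h, for 48 h in CWR22Rv1 (shared by both experiments), for DMKG and for starvation in PC3. There were 3 residual degrees of freedom, and the empirical Bayes prior had 5.09. Genes were called at a Benjamini-Hochberg adjusted p under 0.05 over all genes. The study's methods name an unpaired two-tailed test on single values, which was run as an alternative. The number of arrays limits the precision.

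The members and lists were chosen with earlier results of these data known, and the study also measured AK5 and AK7 by RT-qPCR, so the direction of AK5 is not independent evidence. The genes named are all members, up to 3 genes of each list with the smallest p among those called at 48 h, and the 5 genes nearest to AK5. ADA, CKMT1B, GAMT, GATM, PNP and the luminal prostate markers fall outside that rule and were named after their values were seen. Comparisons of levels between sets used quantile-normalized values. Start windows came from RefSeq. Figures were drawn with matplotlib 3.10.9 (Python 3.11.15). In all, 21 other settings were tried, and those for the list counts were added after seeing the data.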

Additional observations from a re-analysis of the deposited data

Results flagged for a closer look

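Of the members, 0 differed between the cell lines after adjustment, and 3 of the 73 list genes did, near the 4.4% of all genes, by a limma contrast of the 48 h response in PC3 minus that in CWR22Rv1. They were 2 of 16 AMP and adenosine enzymes and 1 of 6 nucleoside diphosphate kinases. In NT5E the contrast was 1.90 (adjusted p = 0.00824), with a rise of 1.504 in PC3 and a difference of -0.40 in CWR22Rv1 that was not called. NT5E read 11.30 and 11.43 in starved PC3 arrays and 9.96 and 9.76 in PC3 control arrays. In CWR22Rv1 NT5E was near background. It read 7.305 at 48 h and 7.62 at 0 h, with 95th percentiles of the negative controls of 7.276 and 7.021. In the DMKG experiment it read 6.624 in starved and 7.106 in control cells, with 95th percentiles of 6.852 and 7.075. For NME5, a kinase-like protein of cilia, the contrast was -1.23 (adjusted p = 0.0323), with -0.90 in PC3 and an uncalled 0.33 in CWR22Rv1, and all of its PC3 values, 4.89 and 4.98 starved and 5.91 and 5.76 control, were below the 95th percentile of the negative controls. PNP, the phosphorylase that splits inosine, had a contrast of 1.52 (adjusted p = 0.0433). Its difference was an uncalled 0.51 in PC3, and it fell by 1.01 in CWR22Rv1 (adjusted p = 0.0410). The 48 h differences of PNP in CWR22Rv1 were unequal, at -0.55 in the time course and -1.47 in the DMKG experiment.

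All 3 contrasts lost their call with no term for the experiment (adjusted p 0.252 to 0.319). NT5E was lost when the DMKG experiment missed its control or its starved array (1.82, adjusted p = 0.0612). NME5 and PNP were lost without any 1 PC3 array, and PNP also when either of those arrays was missing (1.06, adjusted p = 0.126). The cause of these differences was not tested.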

How the results depend on the processing

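The AK5 difference kept its direction in all alternatives run, between -2.42 and -2.21 in CWR22Rv1, between -3.22 and -3.07 in PC3 and between -1.89 and -1.73 at 24 h. The PC3 count of called members, 1, became 0 with no term for the experiment (AK3 0.80, adjusted p = 0.348), with the methods' t-test after Benjamini-Hochberg adjustment over all genes (0.118), and without any 1 of the 4 PC3 arrays, so that it ran between 0 and 1 over arrays left out. The count stayed at 0 in the other comparisons under every setting. Values that changed sign were all uncalled. AK4 in PC3 was 0.037 after quantile normalization and 0.048 after median centring. With no term for the experiment, AK1 was 0.20 at 24 h and -0.29 with DMKG, AK3 0.32 and AK9 -0.082 with DMKG. AK9 with DMKG was -0.15 when each CWR22Rv1 experiment had its own starvation effect. With 1 array left out, CWR22Rv1 differences at 48 h ran between -0.059 and 0.24 for AK3, -0.51 and 0.0085 for AK4 and -0.022 and 0.66 for AK9. In PC3 they ran between -0.14 and 0.13 for AK4 and -0.33 and 0.20 for AK9. The PC3 minus CWR22Rv1 response ran between -0.017 and 0.50 for AK4 and -0.48 and 0.056 for AK1, and AK9 with DMKG between -0.15 and 0.53. Same-numbered PC3 arrays showed no shared deviation (r = -0.03 over genes), but this single correlation cannot show whether the arrays were paired. A replicate block in PC3 gave 2938 called genes in PC3, against 3467 without it, and 708 against 1228 in CWR22Rv1, and AK3 kept its call, and no other member gained one. Calls over all genes ran between 8 and 1228 in CWR22Rv1 and between 1619 and 3495 in PC3 with 1 array left out, and between 0 and 1910 and between 10 and 4013 under the other adjusted settings, beside 664 and 4398 by the methods' t-test at an unadjusted p of 0.05. With 1 array left out, a lone array is assumed to vary like the other groups. The causes were not tested. Signal over background limits AK5 in CWR22Rv1 and AK9 everywhere, and 1 array a group limits the 24 h and DMKG effects.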
